A study of Mus musculus with 6 samples.

Results

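Fc receptors are the surface proteins through which immune cells bind the constant region of antibodies. The 6 genes described here were taken by their symbols from the deposited expression table. They were Fcgr1, Fcgr3 and Fcgr4, which encode the activating IgG receptors of the mouse, Fcgr2b, which encodes the inhibitory IgG receptor, Fcer1g, which encodes the common gamma chain, and Fcgrt, which encodes the heavy chain of the neonatal Fc receptor. They are 6 of the 33965 genes in the table, and all 6 were among the 19602 genes with enough counts to be tested. Bulk RNA-seq had been performed on 6 MC38 tumors, 3 from mice given PBS, the vehicle control, and 3 from mice given GB2. MC38 is a mouse colon carcinoma line, and its cells had been inoculated under the skin of female C57BL/6 mice bought at 6 weeks of age. GB2 is a prodrug in which a disulfide bond joins MSA-2, a STING agonist, to artesunate, described as an inhibitor of TREM2. The labels of the sequenced tumors give no dose, no time of collection and no mouse for each tumor, so the p-values measure only the spread between these samples.

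The activating receptors bind IgG on an opsonized particle and signal through the gamma chain, whose cytoplasmic motif is phosphorylated by Src family kinases and then recruits the kinase Syk. This leads to phagocytosis, an oxidative burst and cytokine release in macrophages and neutrophils. Fcgr2b carries an inhibitory motif instead, which recruits the lipid phosphatase SHIP1, the product of Inpp5d, so that the balance of activating to inhibitory receptors sets how readily a myeloid cell answers an immune complex. The neonatal receptor works differently: paired with beta 2 microglobulin, it returns IgG and albumin from endosomes to the cell surface. Activating receptors are known from monocytes, macrophages, neutrophils and, for Fcgr3, NK cells, while Fcgr2b is also found on B cells, mast cells and some endothelial cells, and the neonatal receptor on many cell types.

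Since Fcgr1, Fcgr3 and Fcgr4 had higher values in GB2 tumors and Fcgr2b differed less, the promoters of these 4 receptor genes are shown. Each sequence is the 250 bases before the gene's start in RefSeq on the GRCm38.p6 build, read 5′ to 3′ on the strand of the gene, and RefSeq held a promoter for 6 of the 6 genes. The windows lie at chr3:96293970-96294219 on the minus strand for Fcgr1, chr1:171059404-171059653 on the minus strand for Fcgr3, chr1:171018676-171018925 on the plus strand for Fcgr4 and chr1:170976072-170976321 on the minus strand for Fcgr2b. Capitals mark matches, on either strand, to GAGGAA, the core bound by the macrophage factor PU.1, and to the ISRE bound by interferon regulatory factors, spelled as GAAA, any 2 bases and GAAA. No marked match overlaps another.
Fcgr1: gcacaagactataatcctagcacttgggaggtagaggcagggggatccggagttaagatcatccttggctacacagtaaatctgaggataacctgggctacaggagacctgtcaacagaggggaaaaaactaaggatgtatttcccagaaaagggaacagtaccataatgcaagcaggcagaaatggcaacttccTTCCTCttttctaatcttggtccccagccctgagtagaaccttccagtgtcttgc
Fcgr3: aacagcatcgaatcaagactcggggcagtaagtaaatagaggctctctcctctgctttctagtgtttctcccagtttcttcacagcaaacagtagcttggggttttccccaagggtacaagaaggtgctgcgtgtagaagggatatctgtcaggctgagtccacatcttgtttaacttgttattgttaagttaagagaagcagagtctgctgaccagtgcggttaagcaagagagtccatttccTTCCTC
Fcgr4: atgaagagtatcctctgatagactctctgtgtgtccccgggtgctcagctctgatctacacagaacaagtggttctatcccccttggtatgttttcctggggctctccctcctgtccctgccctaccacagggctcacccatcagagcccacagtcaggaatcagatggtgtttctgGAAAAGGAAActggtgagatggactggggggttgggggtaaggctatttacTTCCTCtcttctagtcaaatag
Fcgr2b: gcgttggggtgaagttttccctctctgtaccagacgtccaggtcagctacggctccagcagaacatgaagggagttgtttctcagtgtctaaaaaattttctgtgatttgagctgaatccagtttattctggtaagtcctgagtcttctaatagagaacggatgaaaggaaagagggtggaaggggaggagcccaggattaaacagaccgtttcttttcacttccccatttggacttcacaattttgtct

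The PU.1 core was present once in each activating receptor's window, as TTCCTC on the strand shown. It began 55 bases before the start of Fcgr1, 6 bases before that of Fcgr3 and 22 bases before that of Fcgr4. RefSeq lists another start for Fcgr3, whose window (chr1:171059395-171059644) is not shown and holds the same match 15 bases before that start. The same letters occurred in 23.3% of the 32851 RefSeq promoters of this length. An ISRE match was found in Fcgr4 alone of the 6 genes, 73 bases before the start, and 2.98% of all promoters held one. Neither of these motifs was present in the windows of Fcgr2b, Fcer1g and Fcgrt. The letters TTGCNNAA, a core bound by C/EBP factors, are not capitalised and were found in the windows of Fcgr3 and Fcgrt and in 9.56% of all promoters. These matches describe the letters of the windows only.

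Each library held between 64764405 and 83690056 estimated counts, with the GB2 libraries the larger. About 4 of these counts stand for 1 read pair. PBS tumor 1 stood apart from the other tumors on the first principal component, which held 34.0% of the variance. Epithelial genes were low in these carcinoma tumors: Epcam had between 12 and 86 counts, and Krt8 had 0 counts in GB2 tumor 1.

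To compare the receptor genes between treatments, counts were tested across all genes and then read for the 6 genes. In GB2 tumors, the 3 activating receptor genes were between 3.65-fold and 5.78-fold higher than in PBS tumors, the gamma chain gene was 2.35-fold higher, and the groups did not overlap in any of these 4. Fcgr2b was 1.38-fold higher and Fcgrt was 1.32-fold lower, both with overlapping groups. The limits of the study's methods are an adjusted p under 0.05 and a 2-fold difference. None of the 6 met them in edgeR's quasi-likelihood test (Benjamini-Hochberg adjusted), and neither did any other gene (0% of 19602), while 1360 genes (6.94%) had a p under 0.05 before adjustment. By nominal limits, meaning a 2-fold difference with p under 0.05 before adjustment, 4 of the 6 genes were higher and 0 were lower, beside 3.74% higher and 0.918% lower of all genes tested. These shares stand for 733 and 180 genes. With 1 tumor left out, the higher count ran from 503 to 950 and the lower count from 123 to 548. With the 2-fold limit alone the count was again 4 higher, beside 7.35% of all genes. The groups were separate in the same 4 genes, where 8.61% of all genes had every GB2 tumor above every PBS tumor, and 0 of the 6 had every GB2 tumor below, where 6.68% of all genes did. DESeq2, run as an alternative, called Fcgr1 and Fcgr3 as higher and 0 of the 6 as lower, beside 1.8% and 0.169% of the genes to which it gave an adjusted p. It was run on the deposited counts, about 4 per read pair, and was not repeated on counts divided by 4. The count of 4 rested on GB2 tumor 3, which had the highest level of Fcgr1, Fcgr3, Fcgr4 and Fcer1g. Without it, 2 genes were past the nominal limits, Fcgr1 and Fcgr3, beside 503 of all 20176 genes tested as higher.

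**Figure D1:**
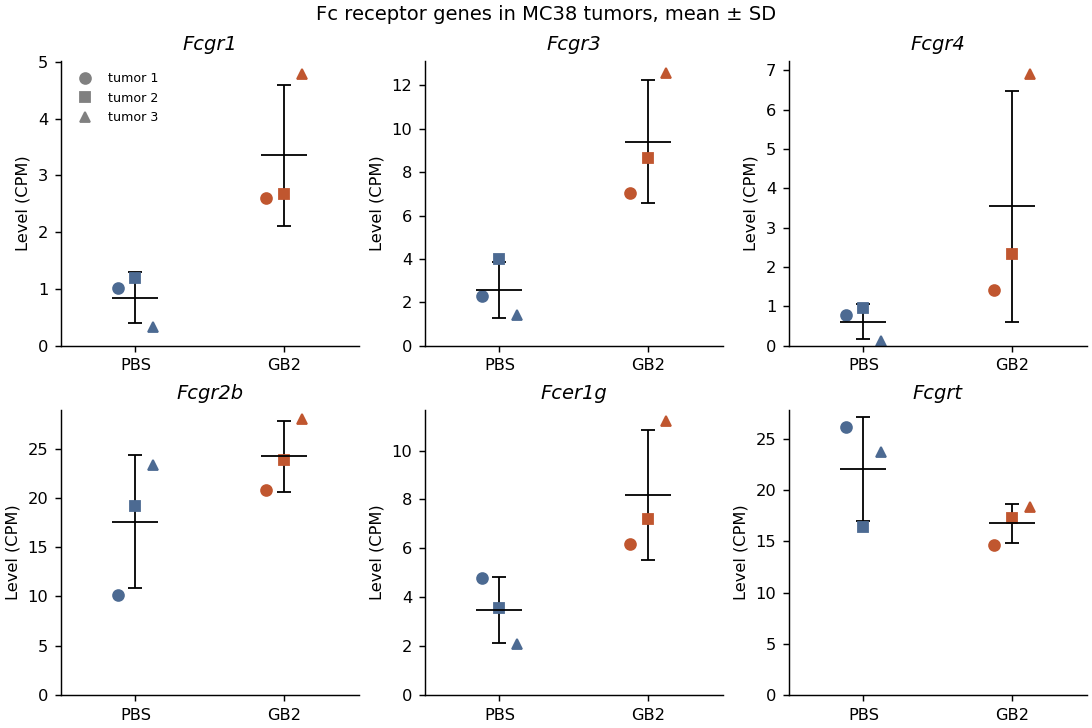
Level of each of the 6 Fc receptor genes in CPM (counts scaled to library size, vertical axis) in the PBS and GB2 tumors, with 1 point per tumor, marked by tumor number, and the mean ± SD as a line and bar. The 3 GB2 tumors lie above the 3 PBS tumors for Fcgr1, Fcgr3, Fcgr4 and Fcer1g, and the groups overlap for Fcgr2b and Fcgrt.

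Fcgr3 (ENSMUSG00000059498), the low affinity activating receptor for IgG complexes, lies on chromosome 1 from 170878743 to 170892504 on the minus strand in the positions of the deposited table, which are not those of GRCm38. PBS tumors 1, 2 and 3 had 137, 281 and 101 counts of it, and GB2 tumors 1, 2 and 3 had 590, 718 and 1067. Every GB2 tumor was above every PBS tumor. Scaled to library size as CPM, its level was 2.58 ± 1.30 in PBS and 9.40 ± 2.84 in GB2 tumors (SD, n = 3 each). The log2 fold change was 1.87 ± 0.43 (SE), with an adjusted p of 0.276 by edgeR's quasi-likelihood test (Benjamini-Hochberg). DESeq2 gave an adjusted p of 0.00303 for the same gene, the smallest among the 6.

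Fcgr1 (ENSMUSG00000015947) encodes the high affinity receptor, CD64, and lies on chromosome 3 from 96190225 to 96201285 on the minus strand. The PBS tumors had 60, 84 and 24 counts of it and the GB2 tumors had 218, 222 and 407. PBS tumor 3 was the lowest and GB2 tumor 3 the highest, and the groups were separate. The level was 0.849 ± 0.450 CPM in PBS and 3.35 ± 1.24 CPM in GB2 tumors (SD, n = 3 each). Its log2 fold change of 1.98 ± 0.53 (SE) had an adjusted p of 0.358 by edgeR's quasi-likelihood test, and DESeq2 gave an adjusted p of 0.0200.

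Fcgr4 (ENSMUSG00000059089) encodes the receptor of intermediate affinity, which binds IgG2 subclasses on monocytes, macrophages and neutrophils. It lies on chromosome 1 from 170846489 to 170857330 on the plus strand. The PBS tumors had 46, 67 and 8 counts of it and the GB2 tumors had 119, 194 and 586. The 8 counts of PBS tumor 3 amount to about 2 read pairs, and GB2 tumor 3 had several times the count of the other GB2 tumors. The groups did not overlap, although the spread was wide, at 0.614 ± 0.442 CPM in PBS and 3.55 ± 2.93 CPM in GB2 tumors (SD, n = 3 each). The log2 fold change was 2.53 ± 0.86 (SE), the highest of the 6, with an adjusted p of 0.573 by edgeR's quasi-likelihood test and 0.0799 by DESeq2. Without GB2 tumor 3 it was 1.61, with an unadjusted p of 0.0950, and was no longer the highest, since Fcgr1 had 1.63.

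Fcer1g (ENSMUSG00000058715), the gene of the gamma chain that the activating receptors need for surface display and signaling, lies on chromosome 1 from 171057141 to 171061934 on the minus strand. The PBS tumors had 284, 252 and 148 counts of it and the GB2 tumors had 517, 600 and 952. The groups were separate, with PBS tumor 3 the lowest and GB2 tumor 3 the highest. The level was 3.49 ± 1.36 CPM in PBS and 8.19 ± 2.66 CPM in GB2 tumors (SD, n = 3 each). The log2 fold change was 1.23 ± 0.39 (SE), with an adjusted p of 0.504 by edgeR's quasi-likelihood test and 0.102 by DESeq2. Without GB2 tumor 3 it was 0.94, with an unadjusted p of 0.0587.

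Fcgr2b (ENSMUSG00000026656), the inhibitory receptor, lies on chromosome 1 from 170786186 to 170804116 on the minus strand. The PBS tumors had 602, 1354 and 1654 counts of it and the GB2 tumors had 1750, 1981 and 2383. On the CPM scale the groups overlapped, since GB2 tumor 1 with 20.8 CPM lay below PBS tumor 3 with 23.4 CPM, while PBS tumor 1 was the lowest with 10.2 CPM. The means were 17.6 ± 6.76 CPM in PBS and 24.2 ± 3.61 CPM in GB2 tumors (SD, n = 3 each). The log2 fold change was 0.46 ± 0.31 (SE), with an adjusted p of 0.779 by edgeR's quasi-likelihood test and 0.780 by DESeq2. It was 0.20 without PBS tumor 1 and 0.72 without PBS tumor 3. PBS tumor 3 thus had the lowest PBS value of each activating receptor and of the gamma chain, and the highest PBS value of Fcgr2b.

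Fcgrt (ENSMUSG00000003420), the neonatal receptor, lies on chromosome 7 from 44742414 to 44753275 on the minus strand. The PBS tumors had 1550, 1158 and 1678 counts of it and the GB2 tumors had 1232, 1437 and 1561. It was the single gene of the 6 with a lower mean in GB2 tumors, at 16.8 ± 1.9 CPM beside 22.1 ± 5.08 CPM in PBS tumors (SD, n = 3 each). PBS tumor 2, with 16.4 CPM, lay within the GB2 range of 14.7 to 18.4 CPM. The log2 fold change was -0.40 ± 0.23 (SE), with an adjusted p of 0.757 by edgeR's quasi-likelihood test and 0.690 by DESeq2. It was -0.25 without PBS tumor 1 and -0.57 without PBS tumor 2, the latter with an unadjusted p of 0.0388.

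These values are averages over all cells of a tumor piece, so that fewer cells of a type and less RNA per cell cannot be told apart. Since Fcgr2b and Fcgr3 resemble each other in the extracellular part, their annotated transcripts were searched for shared stretches. The longest was 129 bases, 94 stretches of 75 bases were shared (2.48% of those of Fcgr2b and 5.78% of those of Fcgr3), and 0 stretches of 150 bases, the read length, were shared. Other pairs among the 6 genes shared at most 14 bases. How reads within the shared stretch were assigned was not tested.

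To compare levels between genes, FPKM values were used, which are divided by gene length. In PBS tumors Fcgrt ranked first in each tumor and either Fcgr1 or Fcgr4 ranked last. In GB2 tumors Fcer1g ranked first in each tumor, followed by Fcgrt and then Fcgr3, and Fcgr1 ranked last. Fcer1g was at 3.65 ± 1.21 FPKM in PBS and 9.18 ± 3.08 FPKM in GB2 tumors, and Fcgrt was at 9.72 ± 1.92 FPKM in PBS and 7.80 ± 0.866 FPKM in GB2 tumors (SD, n = 3 each). In PBS tumors the range of Fcgrt lay above that of Fcer1g, and in GB2 tumors their ranges overlapped. Fcgr3 was at 1.38 ± 0.731 FPKM and then 5.31 ± 1.65 FPKM, next to Fcgr2b at 2.87 ± 1.24 FPKM and then 4.10 ± 0.631 FPKM. Fcgr2b ranked above Fcgr3 in 3 of 3 PBS tumors and below it in 3 of 3 GB2 tumors, although the ranges of both genes overlapped in each group. Fcgr4, at 0.442 ± 0.324 FPKM in PBS and 2.78 ± 2.33 FPKM in GB2 tumors, and Fcgr1, at 0.299 ± 0.160 FPKM and 1.27 ± 0.488 FPKM, were lowest, with overlapping ranges in each group. In GB2 tumor 3, Fcgr4 ranked above Fcgr2b on FPKM. These orders of Fcgr2b depend on its length. With counts divided by the longest annotated coding transcript in place of FPKM, Fcgr2b stayed above Fcgr3 in GB2 tumor 1 (44.5% and 39.4% of the 4 IgG receptors) and GB2 tumor 2 (42.0% and 40.01%), and was below it in GB2 tumor 3 alone (32.2% and 37.9%), where it was above Fcgr4 (22.3%).

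Stacking the 4 IgG receptors shows how the makeup differed. Their summed level was 3.49, 6.54 and 4.93 FPKM for PBS tumors 1, 2 and 3, against 9.70, 11.4 and 19.2 FPKM for GB2 tumors 1, 2 and 3. Fcgr2b made up 42.9%, 48.7% and 79.6% of that sum with PBS and 36.8%, 34.3% and 24.9% with GB2. Every PBS tumor had a higher inhibitory share than every GB2 tumor, and PBS tumor 3 was far above the other PBS tumors. Fcgr3 took 32.6%, 33.6% and 16.1% of the sum with PBS and 41.4%, 41.6% and 37.2% with GB2, again without overlap. The shares of Fcgr4 ranged from 1.73% to 15.0% in PBS and from 11.5% to 28.3% in GB2 tumors, and those of Fcgr1 from 2.52% to 9.54% and from 8.59% to 10.3%, both with overlap. The share of Fcgr2b depends on the length it is divided by: the deposited FPKM imply a length 4.57 times that of Fcgr4, while the longest annotated coding transcripts have 3544 and 1256 bases. With counts divided by these transcript lengths, the mean share of Fcgr2b was 63.8% in PBS and 39.5% in GB2 tumors, beside 57.1% and 32.0% on FPKM. On FPKM, the difference in the mean share was -25.0 percentage points for Fcgr2b and 12.6 for Fcgr3, and without PBS tumor 3 it was -13.8 and 6.97.

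**Figure D2:**
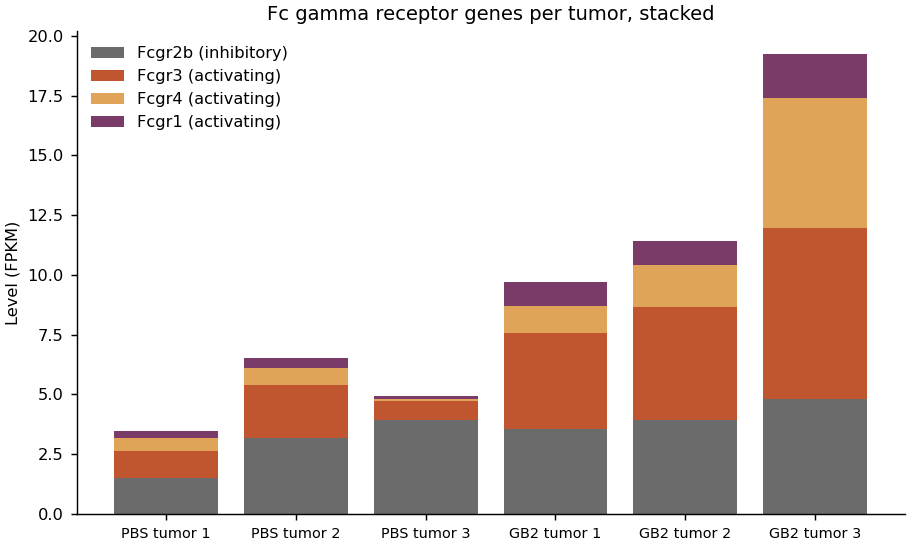
FPKM of the 4 IgG receptor genes (vertical axis) stacked for each of the 6 tumors (horizontal axis), with the inhibitory Fcgr2b at the base and the activating Fcgr3, Fcgr4 and Fcgr1 above it. The Fcgr2b segment spans 1.5 to 3.93 FPKM in PBS and 3.57 to 4.80 FPKM in GB2 tumors, while the 3 activating segments together span 1.005 to 3.35 FPKM and 6.13 to 14.4 FPKM.

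The ratio of the inhibitory receptor to the activating receptors was then computed in each tumor. On FPKM, Fcgr2b over the sum of Fcgr1, Fcgr3 and Fcgr4 was 0.751, 0.949 and 3.91 for PBS tumors 1, 2 and 3, against 0.583, 0.523 and 0.332 for GB2 tumors 1, 2 and 3. The highest GB2 ratio was below the lowest PBS ratio. With counts divided by the longest coding transcript in place of FPKM, the ratio was 1.05, 1.30 and 5.15 with PBS and 0.800, 0.723 and 0.475 with GB2. Whether Fcgr2b lay below the sum of the 3 in PBS tumors 1 and 2 thus depended on the length used. For the test, the log2 ratio of Fcgr2b to the geometric mean of the 3 activating receptors was taken on CPM, where gene length cancels between groups. It was 3.06, 3.54 and 5.94 with PBS and 2.82, 2.66 and 1.91 with GB2. The mean was 4.18 ± 1.55 in PBS and 2.46 ± 0.48 in GB2 tumors, a difference of -1.72 or a 3.29-fold lower ratio, lower in 3 of 3 GB2 tumors (two-sided exact permutation p = 0.1, the smallest that 3 against 3 tumors can give, so that p under 0.05 cannot be reached). Over the family of 23 such quantities, the Benjamini-Hochberg adjusted p of this exact test was 0.135. The size of the difference rested on PBS tumor 3, without which it was -0.84. The gap between the nearest tumors, PBS tumor 1 at 3.06 and GB2 tumor 1 at 2.82, was smaller than the spread within either group.

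Against each activating receptor alone, the log2 ratio of Fcgr2b to Fcgr3 was 2.81 ± 1.06 in PBS and 1.40 ± 0.21 in GB2 tumors, and that to Fcgr1 was 4.48 ± 1.45 and 2.90 ± 0.32. Neither overlapped between groups (differences -1.42 and -1.58, exact permutation p = 0.1 and adjusted p = 0.135 for each). The log2 ratio to Fcgr4 was 5.25 ± 2.14 in PBS and 3.08 ± 0.96 in GB2 tumors, with overlap (difference -2.16, exact permutation p = 0.2, adjusted p = 0.242). Without PBS tumor 3, these differences were -0.80 for Fcgr3, -0.76 for Fcgr1 and -0.94 for Fcgr4. The 3 activating genes thus had like signs against Fcgr2b, with Fcgr3 the least variable.

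**Figure D3:**
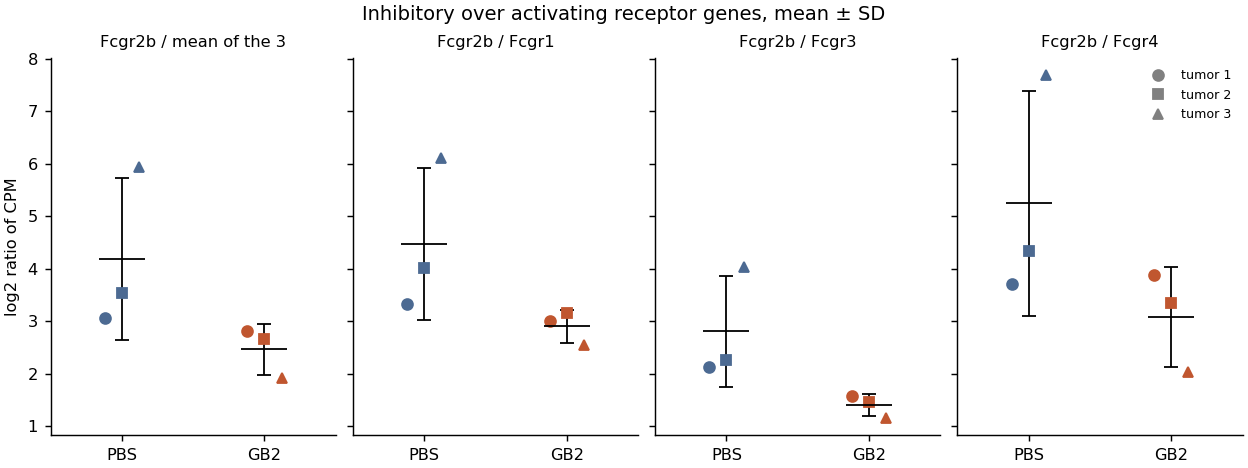
Log2 ratio of CPM (vertical axis) of Fcgr2b to the geometric mean of Fcgr1, Fcgr3 and Fcgr4 and to each of them, with 1 point per tumor and the mean ± SD. PBS tumor 3 is the highest point in each panel, and PBS and GB2 tumors are separate in each panel except that of Fcgr4.

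The RNA level of the gamma chain gene relative to that of the 3 activating receptor genes was compared in the same way. Fcer1g over the summed FPKM of the 3 activating receptors was 2.35, 1.17 and 2.31 with PBS and 1.14, 1.05 and 0.880 with GB2. PBS tumor 2 lay close to the GB2 tumors, and the groups did not overlap. On CPM, the log2 ratio of Fcer1g to the geometric mean of the 3 was 1.85 ± 0.68 in PBS and 0.86 ± 0.24 in GB2 tumors, a difference of -0.99 (exact two-sided permutation p = 0.1, adjusted p = 0.135). That difference was -1.36 without PBS tumor 2 and -0.68 without PBS tumor 3. The neonatal receptor was set against the IgG receptors as well. Fcgrt over the summed FPKM of the 4 IgG receptors was 3.06, 1.15 and 2.23 with PBS and 0.714, 0.686 and 0.450 with GB2, without overlap (exact permutation p = 0.1, adjusted p = 0.135).

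Macrophages are a main source of IgG receptors in tumors, so their markers were read beside the 6 genes. Of a list of 14 macrophage genes that holds none of the 6, 12 were higher in GB2 tumors by the nominal limits, with a median log2 fold change of 1.74, beside -0.02 over all genes tested. The summed level of the list was 71.4 to 99.9 CPM in PBS and 272 to 380 CPM in GB2 tumors. The mean log2 CPM of the list was 1.97, 1.99 and 1.38 for PBS tumors 1, 2 and 3, against 3.26, 3.26 and 3.96 for GB2 tumors 1, 2 and 3. PBS tumor 3 was the lowest and GB2 tumor 3 the highest, as for the activating receptors.

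Relative to the mean of the macrophage list, the activating receptors overlapped between groups. The difference of the log2 level of Fcgr1 minus the list mean was 0.35 between GB2 and PBS tumors (exact two-sided permutation p = 0.4, adjusted p = 0.418), that of Fcgr3 was 0.22 (p = 0.5, adjusted p = 0.5), and that of Fcgr4 was 0.87 (p = 0.4, adjusted p = 0.418), all with overlap. Against Adgre1 and Csf1r alone, which encode F4/80 and the CSF1 receptor, the sign turned for Fcgr1 (-0.22) and Fcgr3 (-0.35), with exact p of 0.4 and 0.2, and the difference of Fcgr4 was 0.29. Against the whole list but without PBS tumor 3, the difference was 0.01 for Fcgr1, 0.06 for Fcgr3 and 0.18 for Fcgr4. Without PBS tumor 2 it was 0.57 for Fcgr1 and 0.49 for Fcgr3, both then without overlap (exact permutation p = 0.1, the smallest possible), and 1.28 for Fcgr4. These p-values do not show that the receptors and the markers were alike.

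The other 3 genes were lower relative to the list in every GB2 tumor than in any PBS tumor. The difference was -0.46 for Fcer1g, -1.18 for Fcgr2b and -2.09 for Fcgrt (exact two-sided permutation p = 0.1 and adjusted p = 0.135 for each). Without PBS tumor 3, the difference of Fcgr2b was -0.73. Without PBS tumor 1, that of Fcer1g was -0.28, and with all 6 tumors, against Adgre1 and Csf1r alone, it was -1.03.

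**Figure D4:**
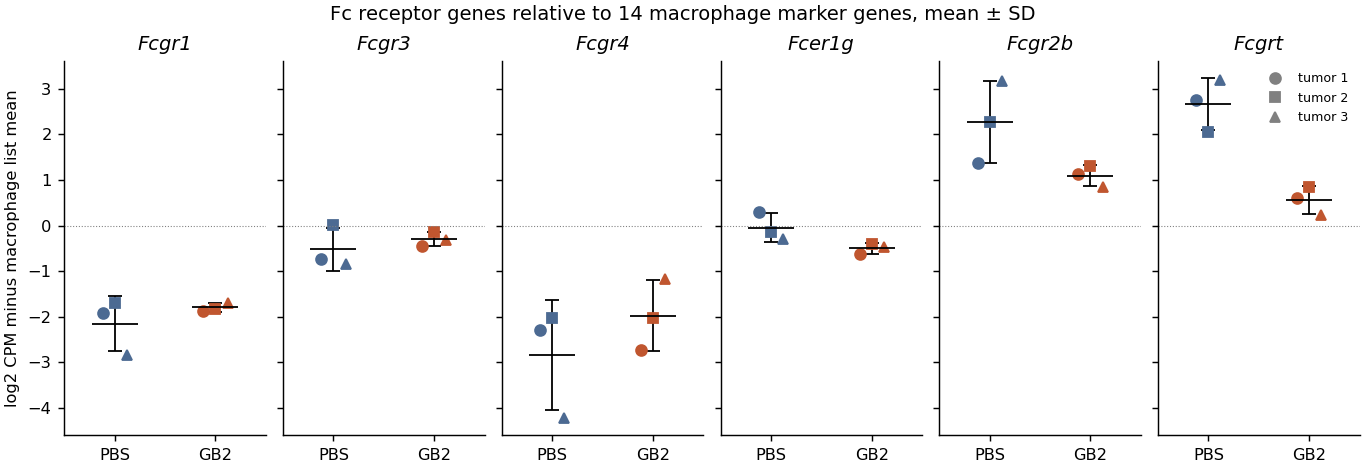
Log2 CPM of each Fc receptor gene minus the mean log2 CPM of 14 macrophage marker genes (vertical axis), with 1 point per tumor and the mean ± SD. The groups overlap for Fcgr1, Fcgr3 and Fcgr4, and the GB2 tumors lie below the PBS tumors for Fcer1g, Fcgr2b and Fcgrt.

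Markers of the other cells that carry these receptors were read in the same way, by the count of genes higher by the nominal limits, which 3.74% of all genes tested were. Neutrophil genes were higher in 4 of 6 tested, with a summed level of 2.29 to 4.50 CPM in PBS and 9.50 to 12.4 CPM in GB2 tumors, although Ly6g was at 0 in all 6 tumors. Mast cell genes were higher in 2 of 4 tested (4.08 to 6.38 CPM and 10.6 to 14 CPM), endothelial genes in 5 of 8 (62.8 to 76.0 CPM and 126 to 144 CPM) and dendritic cell genes in 1 of 4 (8.23 to 10.7 CPM and 13.9 to 16.4 CPM). NK cell genes were higher in 0 of 5 (0.481 to 1.81 CPM and 1.11 to 3.06 CPM), with Ncr1 at 0 in 5 of the tumors. B cell genes were low, at 0.676 to 1.49 CPM in PBS and 1.39 to 2.04 CPM in GB2 tumors. Of the 4 B cell genes tested 1 was higher, Cd22, and Ms4a1 had at most 5 counts in any tumor. Among epithelial tumor cell genes, 1 of 4 tested was higher, Epcam, and the list summed to 2.60 to 6.10 CPM in PBS and 3.69 to 7.74 CPM in GB2 tumors. With 1 tumor left out, the mast cell count ran from 1 (without GB2 tumor 3) to 3 (without PBS tumor 1 or PBS tumor 3). The endothelial count ran from 4 (without PBS tumor 2) to 7 (without PBS tumor 1). The neutrophil count was 6 and the dendritic cell count 2 without PBS tumor 1, and the NK cell count was 1 without PBS tumor 2. Over all genes tested, 503 of 20176 were higher without GB2 tumor 3 and 950 of 20529 without PBS tumor 1. The count was 810 of 20608 without PBS tumor 2 and 832 of 20695 without PBS tumor 3. The part of each cell type in the receptor values was not tested.

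Downstream of the receptors, the proximal signaling genes differed among themselves. Of 23 genes, 7 were higher by the nominal limits and 0 were lower, and the median log2 fold change of the 23 was 0.41, beside 3.74% higher, 0.918% lower and a median of -0.02 over all genes tested. Lyn, a Src family kinase that phosphorylates the gamma chain, had 254, 315 and 260 counts with PBS and 787, 613 and 1081 with GB2, a log2 fold change of 1.24 ± 0.28 (SE). The other kinases past these limits were Fgr (1.55) and Btk (1.27). Among the guanine nucleotide exchange factors that open the way to Rac, Vav1 (2.03) and Vav3 (2.15) were past the limits and Vav2 was at 0.05. The subunits of the class IB PI3 kinase, Pik3cg (2.90) and Pik3r5 (1.46), were also past them, while the PI3 kinase subunits Pik3cd (0.41) and Pik3r1 (0.14) were not. Of these 7 genes, Lyn, Vav1 and Vav3 are also in the table's KEGG list of Fc gamma R-mediated phagocytosis. Fgr, Btk, Pik3cg and Pik3r5 are not in it, and whether they act downstream of these receptors here was not tested. Syk, the kinase that docks on the gamma chain, had 480, 588 and 398 counts with PBS and 896, 1030 and 1257 with GB2. Its groups were separate, and its log2 fold change of 0.78 ± 0.26 (SE) stayed under 2-fold. Src (0.06) and Fyn (-0.10), kinases of the same family found in many tissues, had log2 fold changes near 0. By edgeR's quasi-likelihood test (Benjamini-Hochberg adjusted), 0 of the 23 were called. DESeq2 called 5, all higher, beside 1.8% higher and 0.169% lower of the genes to which it gave an adjusted p.

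On the inhibitory side, 1 of 7 phosphatases and adaptors (14.3%) was past the same limits, in the higher direction, which 3.74% of all genes tested were. Inpp5d, which encodes SHIP1, the effector of Fcgr2b, had 99, 183 and 152 counts with PBS and 486, 402 and 673 with GB2. Every GB2 tumor was above every PBS tumor. Its level was 2.14 ± 0.462 CPM in PBS and 6.18 ± 1.58 CPM in GB2 tumors (SD, n = 3 each), and its log2 fold change was 1.53 ± 0.32 (SE), with an adjusted p of 0.234 by edgeR's quasi-likelihood test and 0.000672 by DESeq2. The receptor that recruits SHIP1, Fcgr2b, had a log2 fold change of 0.46, and the difference between these 2 values was not tested. Ptpn6, which encodes the phosphatase SHP-1, was lower in every GB2 tumor, a pattern of 6.68% of all genes tested, at 82.4 ± 6.25 CPM in PBS and 70.9 ± 3.55 CPM in GB2 tumors (log2 fold change -0.22, adjusted p = 0.781 by edgeR's quasi-likelihood test). The median log2 fold change of the 7 was 0.16, beside -0.02 over all genes tested. With 1 tumor left out, it ran from 0.11 (without GB2 tumor 1) to 0.29 (without PBS tumor 3 or GB2 tumor 3).

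**Figure D5:**
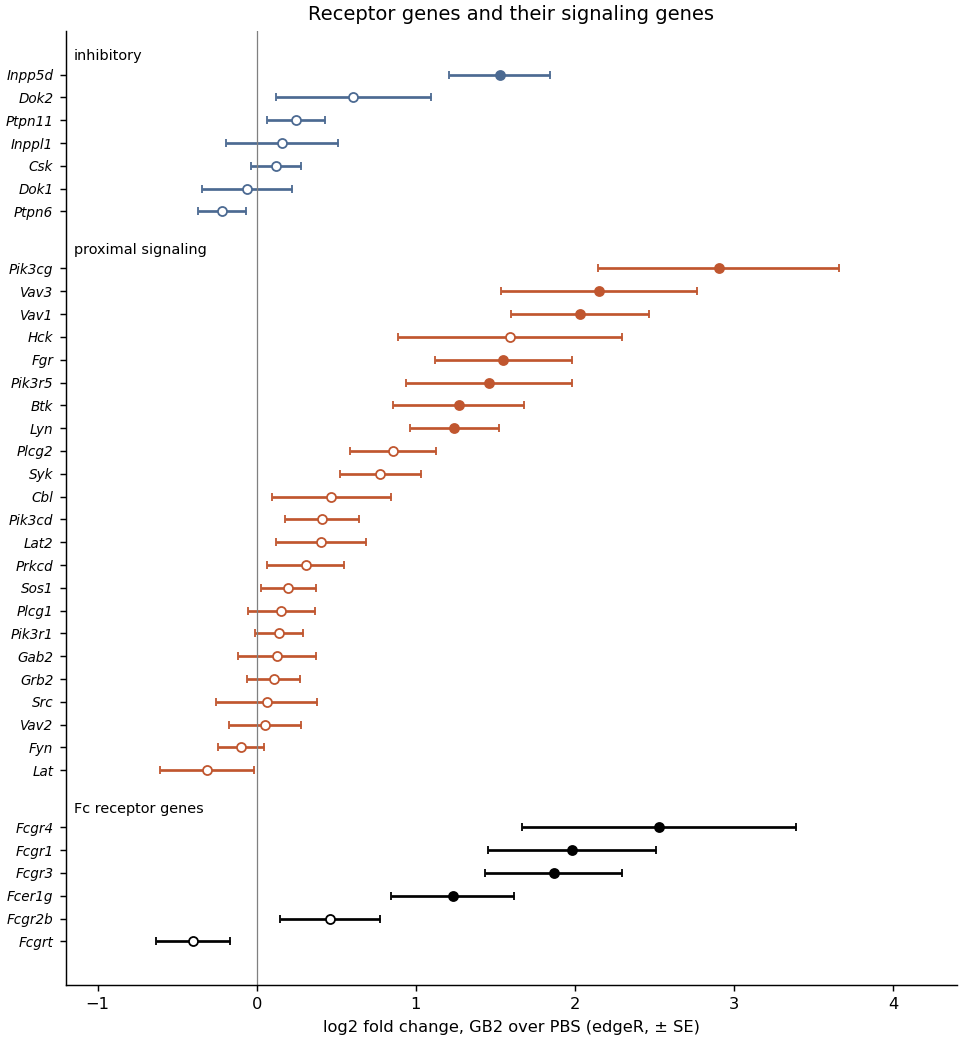
Log2 fold change of GB2 over PBS tumors (horizontal axis, edgeR estimate, bars ± SE) for the 6 Fc receptor genes, 23 proximal signaling genes and 7 inhibitory genes. Filled points are past the nominal limits (p under 0.05 before adjustment, 2-fold), and 4, 7 and 1 genes of the groups are filled, all to the right of 0.

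Of 18 actin genes of the phagocytic cup, 4 were past the nominal limits, all higher: Rac2 (1.56), the Rac GTPase of blood cells, Was (1.19), which drives actin branching in the same cells, and Dock2 (2.02) and Elmo1 (1.58), which activate Rac. Rac1, present in nearly all cells, had a log2 fold change of 0.03, and the median of the 18 was 0.12, with a range of 0.05 to 0.20 when 1 tumor was left out. Without GB2 tumor 3, 1 of the 18, Elmo1, was past the limits, beside 503 of all 20176 genes tested as higher. Of the other receptors that signal through the gamma chain, 3 of 6 had enough counts, and all 3 were past the limits: Clec4e, Clec4n (2.06) and Clec4d (1.37), which encode the lectins Mincle, Dectin-2 and MCL. Clec4e had 58, 40 and 32 counts with PBS and 319, 305 and 276 with GB2, a log2 fold change of 2.42 ± 0.39 (SE). Among 13 other Fc receptor and Fc receptor-like genes, 4 had enough counts, and Fcrls (2.08) was past the limits, while Trim21 (0.94), which encodes a cytosolic antibody receptor, was not. Without GB2 tumor 3, 0 of these 4 were past them, and without PBS tumor 2 or GB2 tumor 1 Trim21 was, in the former case in place of Fcrls. Over all genes tested, 810 of 20608 were higher without PBS tumor 2 and 616 of 20192 without GB2 tumor 1. Across the 6 lists of signaling, partner and related genes, 16 of the 63 genes tested (25.4%) were past the limits in the higher direction and 0 in the lower, beside 3.74% and 0.918% of all genes tested. The 16 became 10 without GB2 tumor 3. Over all genes tested, the higher count went from 733 of 19602 to 503 of 20176 in that fit.

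In the KEGG list of Fc gamma R-mediated phagocytosis as annotated in the deposited table, 91 of 92 genes were tested. Of these, 10 (10.99%) were past the limits, all higher, beside 3.74% higher and 0.918% lower of all genes tested, and the median log2 fold change was 0.18, with a range of 0.11 to 0.34 when 1 tumor was left out (lowest without PBS tumor 1, highest without PBS tumor 3). Fcgr1, Fcgr2b and Fcgr4 are themselves in that list, and Fcgr1 and Fcgr4 are among the 10. Ncf1, a subunit of the phagocyte oxidase, was highest of the rest with 2.29. Without GB2 tumor 3, 6 genes of the list were past the limits, where 503 of all 20176 genes tested were higher, beside 733 of 19602 with all tumors. The study names this pathway among its own enrichment results, in its text for these tumors and in a caption for a macrophage line, so the count is not taken as independent evidence of its direction.

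Of 11 genes of ligands and partners of the receptors, 8 were tested and 0 were past the limits in either direction, beside 3.74% higher and 0.918% lower of all genes tested. Their median log2 fold change was -0.92, beside -0.02 over all genes. With 1 tumor left out, it ran from -1.25 (without GB2 tumor 2) to -0.40 (without GB2 tumor 1), and was -0.43 without PBS tumor 2. Without PBS tumor 2, the IgM heavy chain gene Ighm was past the limits as higher, and without PBS tumor 3 the kappa light chain gene Igkc as lower. Of all genes tested, 810 of 20608 were higher in the former fit and 548 of 20695 were lower in the latter. The IgG heavy chain genes were scarce: Ighg1 had at most 8 counts and Ighg2b at most 13 counts in a tumor, and Ighg2c had 12 to 32 counts in PBS and 4 to 24 in GB2 tumors. B2m, whose product pairs with the neonatal receptor, had 44048, 46223 and 10148 counts with PBS and 23263, 44728 and 64173 with GB2, so that PBS tumor 3 was the lowest, and its log2 fold change was 0.02. Alb, whose product is the other cargo of that receptor, had 109 counts in GB2 tumor 1 and between 14129 and 30023 counts in the other 5 tumors. In that tumor Apcs and Crp, which encode pentraxins that bind Fc receptors, were both at 0. Fcgrt itself was at 14.7 CPM in that tumor, the lowest of the 6 tumors. Which cells the Alb, Apcs and Crp RNA came from was not tested.

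The profiles of the 6 genes over the 6 tumors were compared by the root mean square difference of their centred log2 CPM. The closest pair was Fcgr1 and Fcgr3 at 0.267, and the most distant was Fcgr4 and Fcgrt at 1.87. Fcgr2b was 1.63 from Fcgr4 and 0.936 from Fcgr3, which lie near it on chromosome 1, and 0.673 from Fcgrt. Among the 14240 genes with a mean of at least 1 CPM, the profile most like that of Fcgr1 was that of Csf1r (0.113), followed by Ifi204 (0.130) and Clec4a3 (0.183). Those most like Fcgr3 were Gvin-ps7 (0.119), Laptm5 (0.128) and Rassf4 (0.144), and those most like Fcer1g were Dapk1 (0.140), Clec12a (0.147) and Crybg1 (0.176). Fcgr4 had no profile as close, with Dock2 at 0.489, Fgl2 at 0.520 and Slamf9 at 0.524. Fcgr2b was nearest to Naa25 (0.0581), which encodes a subunit of an N-terminal acetyltransferase, Mpc1-ps (0.0613) and Zfp59 (0.0908), and Fcgrt to Abhd17a (0.0582), Srrd (0.0612) and Cryl1 (0.0674). These likenesses rest on 6 tumors and are given as a description.

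In the positions of the table, Fcgr2b, Fcgr4, Fcgr3 and Fcer1g lie within 275.7 kb of chromosome 1. Within 100 kb of any of the 6 genes the table holds 80 other genes, of which 54 were tested. Of these, 1 was higher by the nominal limits, the histone gene H2ac20 near Fcgr1 (log2 fold change 1.57, with means of 0.153 CPM in PBS and 0.459 CPM in GB2 tumors), and 0 were lower, beside 3.74% and 0.918% of all genes tested. The median log2 fold change of the 54 was -0.18.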

How the data were processed

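RNA was collected from 6 MC38 tumors, 3 from PBS-treated and 3 from GB2-treated mice, poly-A selected and sequenced as stranded paired-end libraries. The authors deposited estimated counts and FPKM per tumor for 33965 genes. The estimated counts deposited are whole numbers, not scaled between tumors, and low values pile up at 4 (7017 values of 4, 2984 of 3 and 2017 of 5), so that about 4 counts stand for 1 read pair. The deposited FPKM are scaled for gene length and library size. The submitters' processing notes name cutadapt 1.9, HISAT2 2.2.1, StringTie 2.1.6, DESeq2, edgeR and mm10, with no roles. Of 31999 gene IDs shared with a GRCm38 annotation, GENCODE M21, 641 (2.00%) had the same start and end, so the gene positions printed are those of the table and were not set beside GRCm38 coordinates.

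Counts were analyzed in R 4.3.3 with edgeR 4.0.16: filterByExpr with a minimum count of 10 (19602 genes kept), TMM scaling (factors 0.914 to 1.04), glmQLFit and glmQLFTest, with Benjamini-Hochberg adjustment over all genes tested. Standard errors come from the test statistic. Log2 CPM used a prior count of 2 for profiles and for values relative to the macrophage list. Ratios between the Fc receptor genes used CPM with no prior count. Calls needed an adjusted p under 0.05 with at least a 2-fold difference. The common dispersion was 0.164 (biological coefficient of variation 40.5%), which limits what 3 tumors per group can show. Ratios were tested by exact permutation of the tumors, two-sided. Alternatives used DESeq2 1.42.0, limma 3.58.1 on log2(FPKM + 1) and log2(FPKM + 0.1), other scalings and filters, counts divided by 4, a replicate block and each tumor left out. Counts divided by 4 were fitted with edgeR alone. The fits were tested on simulated counts.

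The 6 genes and all lists were chosen with earlier results of these data known. Named genes were the 6, list genes by role or smallest p, genes within 100 kb, and the 3 nearest profiles of each. Ighg3 was not analysed here. No amino acid sequences were used here.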

Additional observations from a re-analysis of the deposited data

How the results depend on the processing

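Under 15 alternative fits, the direction of the difference was the same for each of the 6 genes. DESeq2 changed the calls: Fcgr1 (log2 fold change 1.98, adjusted p = 0.0200) and Fcgr3 (1.86, adjusted p = 0.00303) passed the limits, so that it called 2 of the 6 genes, and 385 genes in all, where edgeR's quasi-likelihood test called 0. These DESeq2 calls rest on the deposited counts, about 4 per read pair, which can understate the noise of low counts. DESeq2 was not run on counts divided by 4. The other fits called 0 of the 6 genes and 0 of all genes. The number of the 6 genes past a 2-fold difference with p under 0.05 before adjustment, 4, was 2 to 4 when 1 tumor was left out, with 2 without GB2 tumor 3 and 3 without PBS tumor 3. It was 3 by limma on log2(FPKM + 1), which gave Fcgr1 a log2 fold change of 0.79 and Fcgr4 one of 1.24, below the 1.42 of Fcgr3. With 1 tumor left out, the 16 genes of the 6 lists ran from 10 to 21, and the 10 genes of the KEGG list from 6 to 13, both lowest without GB2 tumor 3. Over all genes tested, the higher count of 733 ran from 503 (without GB2 tumor 3) to 950 (without PBS tumor 1). The lower count of 180 ran from 123 (without GB2 tumor 2) to 548 (without PBS tumor 3). Medians and counts of the single lists without 1 tumor were an alternative added after seeing the data. Relative to Adgre1 and Csf1r in place of 14 macrophage genes, the sign turned for Fcgr1 (-0.22) and Fcgr3 (-0.35). The ratio of Fcgr2b to the activating receptors stayed lower in GB2 tumors, from -2.28 to -0.84 with 1 tumor left out, and at -1.66 with a prior count of 2, an alternative added after seeing the data. The causes of these shifts were not tested. The labels do not say that the tumor numbers pair the tumors. Deviations of same-numbered tumors correlated at 0.03, 0.15 and -0.24, and not every tumor correlated best with its own number. With 3 tumors per group, these correlations cannot decide whether tumors were paired. With the replicate block, 3 of the 6 genes were past the limits and 0 were called, Fcgr4 had a log2 fold change of 2.35 (unadjusted p = 0.0724), and the ratio differed by -1.72 (exact sign-flip p = 0.25, the smallest that 3 pairs allow). Dividing counts by coding transcript length in place of FPKM, chosen after seeing the data, gave a difference in the Fcgr2b share of -24.3 percentage points, beside -25.0 (-13.8 without PBS tumor 3). Counts of 8 to 84, about 2 to 21 read pairs, limit the precision of Fcgr1 and Fcgr4 in PBS tumors.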
